A study of Homo sapiens with 16 samples.

Results

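CTCF and eGFP-YAP were compared in HEK293 cells under sorbitol, to find the chromatin intervals that kept more CTCF than eGFP-YAP signal once stress had made the profiles more alike. The members were the intervals of a shared peak table on chromosomes 1 to 22 and X, without those inside the YAP1 gene, which gave 73975 of 74404 intervals. The comparison used 4 of the 16 libraries of the series, 2 CTCF and 2 eGFP-YAP, and the matching 4 vehicle libraries showed where a difference was already present. HEK293 is a human embryonic kidney cell line. All groups carried the eGFP-YAP genotype, so there was no group without the tagged protein. Per the series' design, cells were starved of serum for 1 h. The sorbitol groups then had 200 mM sorbitol for 1 h, which is hyperosmotic stress, and the control groups had vehicle. CUT&Tag uses an antibody to bring a Tn5 transposase to its target, which cuts and tags the DNA nearby. CTCF was read with an antibody to the protein itself and eGFP-YAP with an antibody to GFP, whose libraries are called YAP1 here. A control antibody such as IgG was not analysed here, so background was not subtracted. In the column names vehicle stands at 0 h and sorbitol at 1 h, whereas the treatment protocol says that controls were harvested alongside. Nothing in the labels says that replicates came from separate cultures, so the p-values measure only the spread between these libraries.

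CTCF is a zinc finger protein that binds DNA directly at a long, well defined motif. It stops the cohesin ring, of which RAD21 is a subunit, and so marks loop anchors and insulators. YAP is a co-activator without a DNA-binding domain. It is held out of the nucleus by the Hippo kinases and reaches promoters and enhancers mainly through TEAD factors, often beside AP-1. Hyperosmotic stress shrinks cells and can gather YAP into condensates. A tagmentation assay also cuts open chromatin without regard to the antibody, which is where CTCF and YAP1 libraries can share signal.

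The reference sequence around the best match to the CTCF consensus is shown for 4 kinds of interval. Each line gives 60 bases of hg38 in the orientation of the match, from the strand named, and the 14 capitals mark the best match.
The following 5 were CTCF-higher in both treatments, and their matches had no mismatch or 1 mismatch.
APBB2 intron, chr4:40908833-40908892, plus strand: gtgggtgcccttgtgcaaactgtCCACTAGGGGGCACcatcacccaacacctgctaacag
TP53I11 intron near TSPAN18, chr11:44927242-44927301, plus strand: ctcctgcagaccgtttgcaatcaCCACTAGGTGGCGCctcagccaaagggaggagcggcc
NR4A1 intron, chr12:52025804-52025863, plus strand: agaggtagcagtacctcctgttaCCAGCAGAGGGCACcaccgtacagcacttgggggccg
IGHVIII-2-1, chr14:105999404-105999463, minus strand: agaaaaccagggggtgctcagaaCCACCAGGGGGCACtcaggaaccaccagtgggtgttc
MYOF intron, chr10:93376538-93376597, plus strand: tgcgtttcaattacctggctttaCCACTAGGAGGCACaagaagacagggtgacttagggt
Another 2 were CTCF-higher with vehicle and lost the call with sorbitol. Their matches were as close, with no mismatch and 1 mismatch in this order.
ENSG00000237472, chr22:22959376-22959435, plus strand: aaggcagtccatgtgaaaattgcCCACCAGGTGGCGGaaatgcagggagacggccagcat
SLC35B1, chr17:49695597-49695656, minus strand: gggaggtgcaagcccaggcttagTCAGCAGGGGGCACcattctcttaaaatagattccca
A further 2 were YAP1-higher with vehicle and CTCF-higher with sorbitol. The best match of each had 3 mismatches, in GC-rich coding sequence.
C1QTNF4 coding exon, chr11:47590223-47590282, plus strand: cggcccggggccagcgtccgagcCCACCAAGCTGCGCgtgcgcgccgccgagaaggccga
NEFH coding exon, chr22:29480587-29480646, plus strand: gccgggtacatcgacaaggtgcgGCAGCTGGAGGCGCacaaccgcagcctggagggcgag
The last 2 were YAP1-higher in both treatments, with 4 and 5 mismatches. Both lay in short tandem repeats. The TEAD motif GGAATG, read on both strands, arose where repeat units met. It occurred 1 time in the DEFB115 window and 3 times without overlap in the KSR1P1 window.
DEFB115, chr20:31229887-31229946, minus strand: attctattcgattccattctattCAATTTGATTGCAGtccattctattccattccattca
KSR1P1, chr10:41873727-41873786, plus strand: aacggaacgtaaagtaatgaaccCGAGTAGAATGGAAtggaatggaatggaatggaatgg
A letter match describes the reference and is not a measured binding site. Tandem repeats have many near-identical copies, so the position of their reads is uncertain.

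The CTCF sorbitol libraries held 1523792 and 1565071 counts in the intervals used, and the YAP1 sorbitol libraries 803927 and 659976. With vehicle the CTCF libraries held 3616235 and 2475732 counts and the YAP1 libraries 1961929 and 1652645. Intervals left out by the rule took 46.7% ± 0.574 (SD, n = 2) of CTCF counts and 70.2% ± 2.16 of YAP1 counts under sorbitol, so the compared libraries differed in usable depth. The labelled line was checked by H3K27ac, a mark of active promoters, in the sorbitol libraries. Its markers PAX2, EYA1, LHX1, VIM and NEFM had marked promoter intervals, with 42 and 50 counts at NEFM, a neurofilament gene, and 611 and 566 at VIM, an intermediate filament gene. Of 6 markers of other cells, ALB, CD3E, HBB and PTPRC had no promoter interval, whereas MYOD1 had 84 and 86 counts and GFAP 45 and 25.

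With sorbitol, CTCF was higher than YAP1 at 7929 of 40996 tested intervals, which is 19.3%, and YAP1 was higher at 2268, which is 5.53%. With vehicle the same fit called CTCF higher at 17169 intervals (41.9%) and YAP1 higher at 13497 (32.9%). Calls are from the edgeR quasi-likelihood test at a Benjamini-Hochberg adjusted p under 0.05, on TMM-scaled counts. CTCF-specific signal in both treatments was found at 7153 intervals, 17.4% of those tested. The 7929 sorbitol calls were thus mostly old ones, since 90.2% of them had been CTCF-higher with vehicle. YAP1-higher calls in both treatments numbered 1930, or 14.3% of the vehicle calls, against 41.7% for CTCF. The depths differ between treatments, so all 8 libraries were also thinned to 659976 counts. Then 4966 of 10034 vehicle CTCF-higher calls were made again with sorbitol (49.5%), and 2035 of 8137 YAP1-higher calls (25%).

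The direction of the calls depended on how libraries were scaled. Under TMM, 77.8% of sorbitol calls were CTCF-higher. Scaling to the weakest 25% of intervals gave 5285 CTCF-higher and 6900 YAP1-higher calls, or 43.4% CTCF-higher, and shifted the median log2 CTCF over YAP1 of all tested intervals from 0.21 to -0.37. For vehicle the CTCF-higher share was 56.0% under TMM, 68.7% under DESeq2 size factors and 32.7% under the weakest-interval scaling. The median vehicle log2 moved from 0.15 to 0.68 and -0.96 under the last 2. Under all 4 scalings, 5285 intervals were CTCF-higher with sorbitol, 2042 were YAP1-higher, and 3781 were CTCF-higher in both treatments. The YAP1-higher count under sorbitol also rested on single libraries: it was 1308 and 1271 without the first or second CTCF sorbitol library and 1330 without the first YAP1 one.

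**Figure D1:**
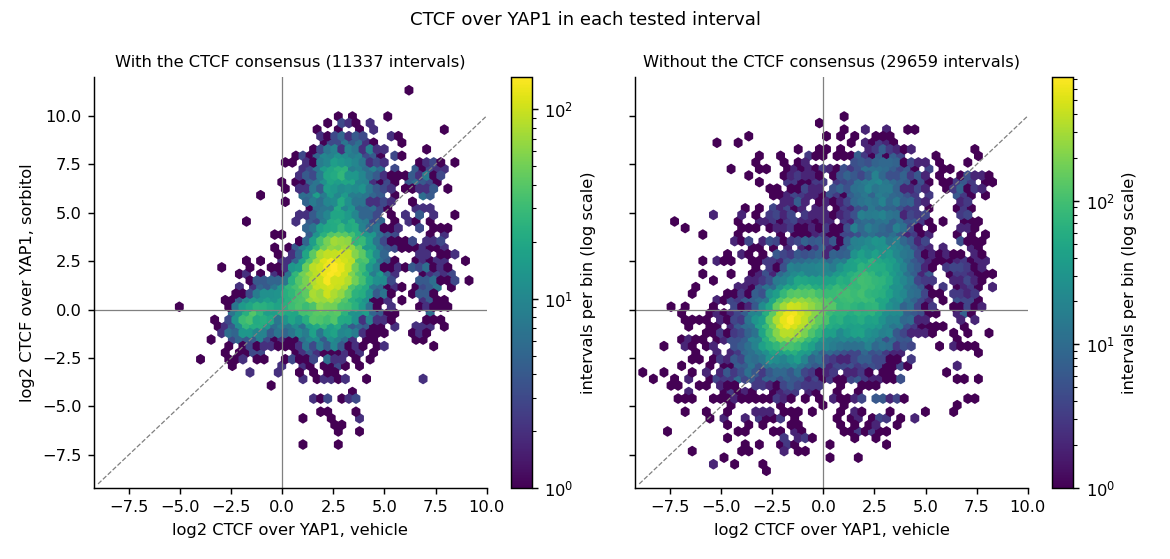
Each hexagon counts tested intervals by log2 CTCF over YAP1 with vehicle (x axis) and with sorbitol (y axis), at 11337 intervals with the CTCF consensus (left) and 29659 without it (right). The dashed line marks equal values; the consensus cloud stays in the upper right and the cloud without the consensus moves from YAP1-higher towards 0, while the band at high sorbitol values holds intervals with few or no YAP1 counts.

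The CTCF motif set the CTCF-specific intervals apart. The consensus, with at most 1 mismatch on either strand, was in 69.7% of the 7153 intervals that were CTCF-higher in both treatments, and in 27.7% of all tested intervals. A perfect match was in 27.9% of them and in 7.76% of all. In equal windows of 400 bp the consensus was in 63.5% against 24.9%. The TEAD motif GGAATG was in 19.8% of these windows and in 18.0% of all, and the AP-1 motif TGANTCA in 8.68% and 8.58%, each read on both strands. YAP1-higher intervals in both treatments had the consensus in 4.4% of cases, the TEAD motif in 20.6% of windows and the AP-1 motif in 5.08%. The 3781 intervals called CTCF-higher in both treatments under every scaling had the consensus in 77.5% of cases.

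The share of CTCF-higher calls fell with each mismatch up to 3. With sorbitol it was 63.7% of 3182 intervals with a perfect match, 38.3% of 8155 with 1 mismatch, 13.8% with 2, 5.7% with 3, 5.69% with 4, and 6.17% of 616 with 5 or more. With vehicle the first 3 of these shares were 95.1%, 79.8% and 38.1%. At perfect matches the median log2 CTCF over YAP1 was 2.72 with vehicle and 2.40 with sorbitol. It was 2.16 with sorbitol once intervals without any YAP1 count were set to the bound that 3 counts over the group allow. YAP1 was higher at 0.0629% of perfect matches with sorbitol and 0.22% with vehicle. The median log2 difference between intervals with and without the consensus was 1.95 under sorbitol, and 1.64 to 1.78 in the 4 pairs of a CTCF with a YAP1 library. With the bounded values the medians were 1.58 and -0.16.

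**Figure D2:**
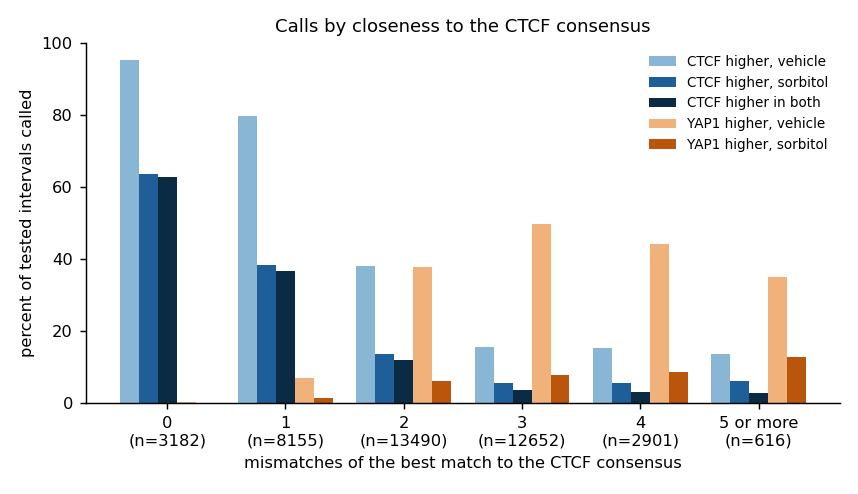
Percent of tested intervals called in each direction (y axis) by the number of mismatches of the best match to the CTCF consensus (x axis, with the number of intervals). The CTCF-higher bars drop from 95.1% (vehicle) and 63.7% (sorbitol) at perfect matches to 13.8% and 6.17% at 5 or more mismatches, and the sorbitol and both-treatment bars are nearly equal at perfect matches.

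Distal intervals had more CTCF over YAP1 than promoters under sorbitol. Over all tested intervals, distal ones, more than 10 kb from an annotated start site, had a median log2 CTCF over YAP1 that was 1.05 above that of promoter intervals, which lie within 1 kb of one. The library pairs gave 0.88 to 1.00. No YAP1 count under sorbitol was found at 13.6% of distal and 2.07% of promoter intervals. With these set to the bound, the medians were 0.66 at distal and -0.18 at promoter intervals. The difference was 0.567 with GC-corrected offsets and 0.543 and 0.601 without the first or second CTCF sorbitol library. At promoters with the consensus, 45% of 3209 intervals were CTCF-higher under sorbitol and 2.77% YAP1-higher. At promoters without it these shares were 6.22% and 9.82% of 15970. Distal intervals with the consensus were CTCF-higher in 43.1% of 3569 cases, and distal intervals without it in 12.2% of 6287. The median log2 CTCF over YAP1 of consensus intervals was 1.30 at promoters and 2.10 at distal sites, a difference that was not tested. With vehicle, 66.7% of consensus promoters and 91.7% of consensus distal intervals were CTCF-higher.

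Base composition moved with these shares. Tested intervals were put into 4 equal groups by GC content. In the lowest, up to 49.3%, consensus intervals were CTCF-higher in 92.5% of cases with vehicle and 34.8% with sorbitol. In the highest, from 64.4%, they were CTCF-higher in 55.9% and 47.8%. Without the consensus the lowest group went from 56.1% to 11.4% and the highest from 8.09% to 7.93%. The part of GC content in the loss of calls was not tested beyond the offsets. With GC-corrected offsets, 5440 of the 7153 intervals were again CTCF-higher in both treatments, and 71.8% of these had the consensus.

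Intervals sorted by what happened to their CTCF excess differed in more than the motif. CTCF-higher with vehicle and uncalled with sorbitol were 9968 intervals, of which 45.5% had the consensus. Their median GC content was 49.0%, against 54.2% for the intervals CTCF-higher in both treatments and 57.5% for all tested. CTCF-higher with sorbitol and not with vehicle were 776 intervals, a small and different set. The consensus was in 20.6% of them, 59.7% were promoters, 9.54% overlapped coding sequence and their median GC content was 65.6%. Of all tested intervals 46.8% were promoters and 3.68% coding. Among the 776, YAP1 had been higher with vehicle at 150. The opposite switch, from CTCF-higher with vehicle to YAP1-higher with sorbitol, occurred at 48.

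A call in 1 treatment only does not show a difference, so the change itself was tested. The log2 CTCF over YAP1 was larger with sorbitol than with vehicle at 3677 intervals (8.97%) and smaller at 1387 (3.38%). Under DESeq2 size factors these counts were 1021 and 2552, and under the weakest-interval scaling 8422 and 874, so the share of larger values went from 72.6% to 28.6% and 90.6%. DESeq2 gave 23.4%. The median of this change over all tested intervals was 0.39 under TMM, -0.19 and 0.92 under those 2 scalings, and -0.25 by DESeq2. Larger under all 4 scalings were 1021 intervals, with the consensus in 8.81% and a promoter in 81.0%, at a median GC content of 66.1%. Smaller under all 4 were 870 intervals, with the consensus in 42.9%, a promoter in 20.0% and a median GC content of 50.7%. Of the 9968 intervals that were CTCF-higher with vehicle only, 1168 passed the test of the change. Of the 776 with sorbitol only, 403 did. The larger values numbered 2395 without the second YAP1 sorbitol library, and the smaller ones 650 and 693 without the first or second CTCF vehicle library.

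RAD21 and H3K27ac were not used to sort the intervals. Their counts per kb were divided by those over all tested intervals of the same library, which needs no scaling between libraries, and 66 intervals that hold over 0.1% of a library were left out. At the 7123 intervals left of those CTCF-higher in both treatments, RAD21 density was 1.21 in both vehicle libraries and 0.881 and 0.866 in the sorbitol libraries. Where the CTCF call was lost, it was 1.13 and 1.1 with vehicle and 0.578 and 0.558 with sorbitol. Both sets held less of the RAD21 signal under sorbitol, relative to all tested intervals, and the libraries did not overlap between treatments. Where the CTCF call was made with sorbitol only, RAD21 density was 1.18 and 1.24 with vehicle and 2.2 and 2.16 with sorbitol. At intervals YAP1-higher in both treatments it was 1.19 and 1.23, and then 1.59 and 1.62. With 2 libraries against 2, an exact permutation test cannot go below 0.33, so none was run.

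The CTCF and YAP1 libraries chose the sets, so their densities only describe them. At intervals CTCF-higher in both treatments CTCF density was 2.54 and 2.55 in vehicle and 2.43 and 2.44 in sorbitol libraries. YAP1 density there was 0.574 and 0.57, then 0.575 and 0.612. At intervals that lost the call, CTCF density was 1.47 and 1.48 with vehicle and 0.599 and 0.604 with sorbitol, and YAP1 density 0.366 and 0.364, then 0.468 and 0.511. H3K27ac was low at intervals CTCF-higher in both treatments, at 0.413 and 0.412 with vehicle and 0.442 and 0.438 with sorbitol. At intervals YAP1-higher in both it was 1.91 in both vehicle libraries and 1.92 in both sorbitol libraries.

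**Figure D3:**
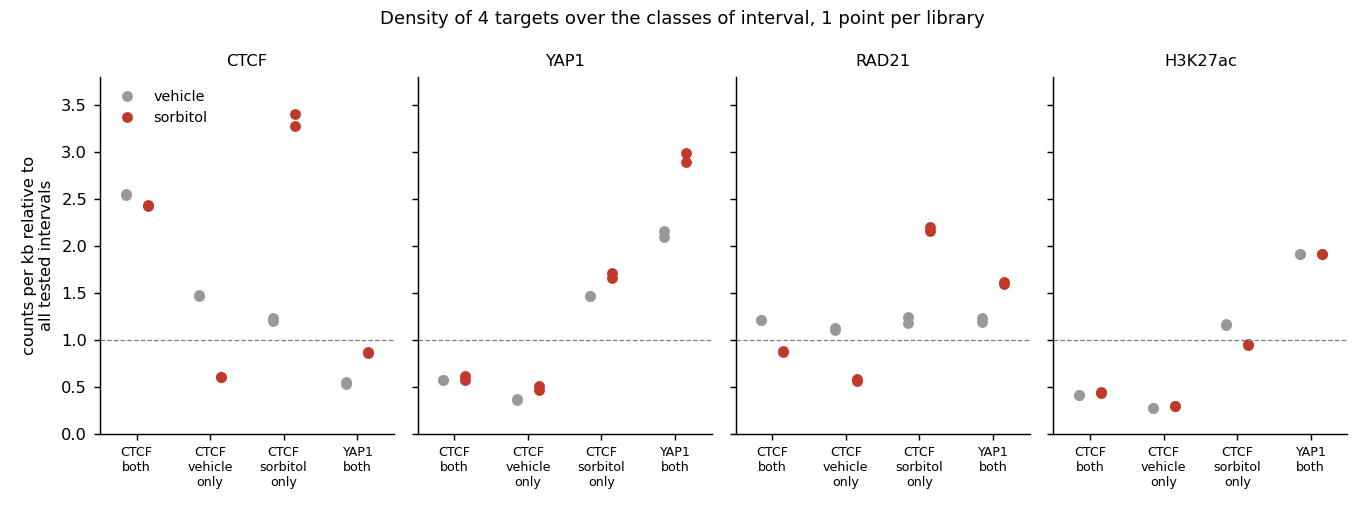
Counts per kb relative to all tested intervals of the same library (y axis, 1 marked by the dashed line) for CTCF, YAP1, RAD21 and H3K27ac over 4 sets of intervals (x axis), 1 point per library, grey for vehicle and red for sorbitol. RAD21 falls from 1.21 to under 0.9 at intervals CTCF-higher in both treatments and rises above 2 where CTCF was higher with sorbitol only.

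The correlation between CTCF and YAP1 profiles rose more where the CTCF motif was absent. Over the 40996 tested intervals, the Spearman correlation of log2(CPM + 1) between a CTCF and a YAP1 library, all thinned to the same total, was 0.489 to 0.495 with sorbitol and 0.165 to 0.187 with vehicle in the 4 pairs. Without the consensus (29659 intervals) the mean of the pairs was 0.583 with sorbitol and 0.303 with vehicle. With the consensus (11337 intervals) it was 0.496 and 0.48. At distal intervals it was 0.248 and -0.0252, and at promoters 0.595 and 0.386. Replicates of the same target correlated at 0.801 (CTCF) and 0.708 (YAP1) with sorbitol, and at 0.843 and 0.85 with vehicle. At consensus intervals the YAP1 replicates correlated at 0.575 with sorbitol and 0.693 with vehicle, and the CTCF replicates at 0.867 and 0.865. Without the consensus these were 0.729 and 0.872 for YAP1, and 0.767 and 0.803 for CTCF. How far noise between YAP1 replicates limited the correlation between targets was not tested. These correlations are across intervals, which share depth and base composition and are not replicates.

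The 8 largest fitted log2 values under sorbitol were at intervals where both YAP1 libraries had no count. Such intervals made up 1369 of the 7929 CTCF-higher calls (17.3%) and 6.94% of all tested. A fold against no count is a lower bound, taken here against 3 counts over both YAP1 libraries, so these 8 are not shown to exceed intervals that had YAP1 counts. An interval at chr9:138126171-138127177, between genes and nearest to ENSG00000276388, had 298 and 222 CTCF counts against 0 and 0, at least 80.2-fold higher. With vehicle it had 236 and 143 CTCF counts against 2 and 1. An intron of APBB2, whose protein binds the amyloid precursor protein, had 91 and 74 CTCF counts against 0 and 0 (chr4:40908468-40909117), at least 25.4-fold higher. With vehicle it had 134 and 90 against 15 and 12. In an intron of the collagen gene COL26A1 (chr7:101542696-101543214) the counts were 83 and 76 against 0 and 0, at least 24.5-fold higher. Near IGHV1OR16-2, an immunoglobulin segment outside its locus, they were 92 and 91 against 0 and 0 (chr16:32982551-32983123), at least 28.2-fold higher. The other 4 of this group had at least 24.1-fold to 30.7-fold more CTCF. Of all 8, the interval near ENSG00000287607 (chr1:144813109-144813701) stood out by a best match with 5 mismatches, a GC content of 79.4% and 1.53 and 0.778 CTCF CPM with vehicle against 64.8 and 71.7 with sorbitol. All 8 had an adjusted p of at most 2.3e-09 by edgeR.

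The strongest CTCF signals that were also CTCF-specific in both treatments included members of repeated sequence families. In an intron of the non-coding gene ENSG00000230021 (chr1:609244-610984), close to the end of chromosome 1, CTCF reached 1910 and 1900 CPM under sorbitol against 34.0 and 11.7 CPM for YAP1. CPM here are counts per 1e6 of the TMM-scaled total. The log2 CTCF over YAP1 was 6.29 ± 0.26 (SE). In the non-coding genes DANT1 (chrX:115887611-115889015) and DANT2 (chrX:115727712-115728940), both beside the DXZ4 tandem repeat, CTCF had 1440 and 1390 CPM and 1340 and 1200 CPM. YAP1 had 310.0 and 362.0 CPM and 241.0 and 262.0 CPM, which gave log2 values of 2.08 ± 0.18 and 2.34 ± 0.18. The units of the DXZ4 repeat are near-identical copies, so reads from such sequence may have been divided among them. Whether the DANT1 and DANT2 intervals hold such copies was not tested. At the immunoglobulin heavy chain locus, next to IGHVIII-2-1 (chr14:105999420-106001512), CTCF had 1260.0 and 1110.0 CPM under sorbitol and 84.4 and 82.5 with vehicle. YAP1 there had 2.83 and 3.91 CPM and 5.34 and 5.81. The log2 CTCF over YAP1 was 8.46 ± 0.32 with sorbitol and 3.89 with vehicle (adjusted p of the change 2.1e-06 by edgeR). An intron of PLXNB2, a semaphorin receptor (chr22:50276074-50276586), went the same way, from 2.91 to 5.02 ± 0.24 (adjusted p of the change 4.4e-05 by edgeR). The sixth, in an intron of ENSG00000230423 near the end of chromosome 6, had 769 and 890 CTCF counts against 6 and 4.

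Promoters made up 30.7% of the CTCF-higher intervals under sorbitol, against 46.8% of all tested. The 4 promoters of protein-coding genes with the largest fitted excess had no YAP1 count, so their folds are lower bounds. Next to TSPAN18, a tetraspanin gene, in an intron of TP53I11 (chr11:44926797-44927516), CTCF had 90 and 58 counts and YAP1 0 and 0, at least 22.8-fold. At NANS, which makes sialic acid (chr9:98074091-98074702), the counts were 45 and 48 against 0 and 0, at least 14.3-fold. ROPN1, a sperm flagellum gene (chr3:123979711-123980354), had 48 and 55 against 0 and 0, at least 15.9-fold, and the keratin-associated gene KRTAP5-5 (chr11:1628731-1629402) 39 and 59 against 0 and 0, at least 15.1-fold. All 4 were also CTCF-higher with vehicle, where YAP1 had from 2 to 15 counts.

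The 4 intervals with the most negative fitted change had no YAP1 count with vehicle, so the size of their change is not known. The interval nearest ENSG00000237472 (chr22:22959089-22959560) had 41.3 and 41.2 CTCF CPM with vehicle against 0 and 0 YAP1 counts, at least 52.0-fold higher. With sorbitol it had 14.1 and 14.8 CPM against 4 and 2 YAP1 counts, and a log2 of 1.54 ± 0.66 that missed the threshold (adjusted p 0.081 by edgeR; adjusted p of the change 0.001). Near SLC35B1, a nucleotide sugar transporter gene (chr17:49695409-49695959), CTCF went from 21.4 and 28.0 CPM to 14.1 and 11.8, and YAP1 from 0 and 0 counts to 2 and 5. Another, near ENSG00000275097, had 17.1 CTCF CPM in both vehicle libraries and 14.8 in both sorbitol libraries, so its change rested on YAP1. Without the second YAP1 sorbitol library, which held all 5 YAP1 counts there, it was CTCF-higher with sorbitol as well (adjusted p 0.0059 by edgeR). The fourth, near LINC01691, lies 949818 bp from the nearest start site and had 3.83 and 1.56 CTCF CPM with vehicle and 8.59 and 4.44 with sorbitol. Its YAP1 went from 0 and 0 counts to 9 and 11.

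The 4 most positive fitted changes were at GC-rich intervals without a close motif, 3 of them within 1 kb of a start site. Their YAP1 counts were 0 under sorbitol, and CTCF had few or none with vehicle, so the size of the change is not known. In the coding exon of C1QTNF4, a secreted C1q and TNF family protein (chr11:47590213-47590587), CTCF went from 0 and 0 counts with vehicle to 36 and 35 with sorbitol. YAP1 had 6 and 4 and then 0 and 0 (adjusted p of the change 4.4e-05 by edgeR). In the coding exon of NEFH, a neurofilament subunit (chr22:29480579-29480969), CTCF went from 0 and 0 to 42 and 38 and YAP1 from 5 and 0 to 0 and 0. The adjusted p for NEFH under sorbitol was 5.5e-05 by edgeR and 0.33 by DESeq2. In an intron of PPP2R3B, a phosphatase subunit gene in the pseudoautosomal region (chrX:342312-342604), CTCF had 50 and 37 counts under sorbitol against 0 and 0. Its adjusted p of 0.0011 became 0.067 without the first YAP1 sorbitol library and 0.14 by DESeq2. RAD21 had at most 2 counts in any library at these 3 intervals. The fourth, near ENSG00000275075 (chr1:144152667-144153265), is on the same chromosome as the ENSG00000287607 interval above. It had 62 and 88 CTCF counts against 0 and 0 under sorbitol.

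The largest fitted YAP1 excesses under sorbitol were mostly at low counts, several of them in repeats. They do not stand for all 2268 YAP1-higher intervals, of which 73.1% were promoters, at a median GC content of 60.8%. In an intron of CHST15, a chondroitin sulfotransferase (chr10:124084573-124084952), YAP1 had 14 and 16 counts and CTCF 0 and 0, so CTCF was at least 21.6-fold lower. Near KSR1P1 (chr10:41873692-41873960) YAP1 had 89 and 58 counts and CTCF 5 and 7, a log2 of -4.70 ± 0.40. It was YAP1-higher with vehicle as well, at 53 and 69 counts against 1 and 1. Near DEFB115 (chr20:31229832-31230193) YAP1 had 30 and 25 counts against 1 and 0, a ratio of 119.0 with a 95% interval from 20.5 to 4780.0 that covers counting error only. The intervals near ENSG00000233832 and SLC25A6P4 had 11 and 15 against 1 and 0, and 10 and 13 against 0 and 0. In an intron of NFATC1 (chr18:79525067-79525311), a calcium-dependent transcription factor, YAP1 had 10 and 14 counts against 1 and 0. This call was lost by DESeq2 (adjusted p 0.14).

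**Figure D4:**
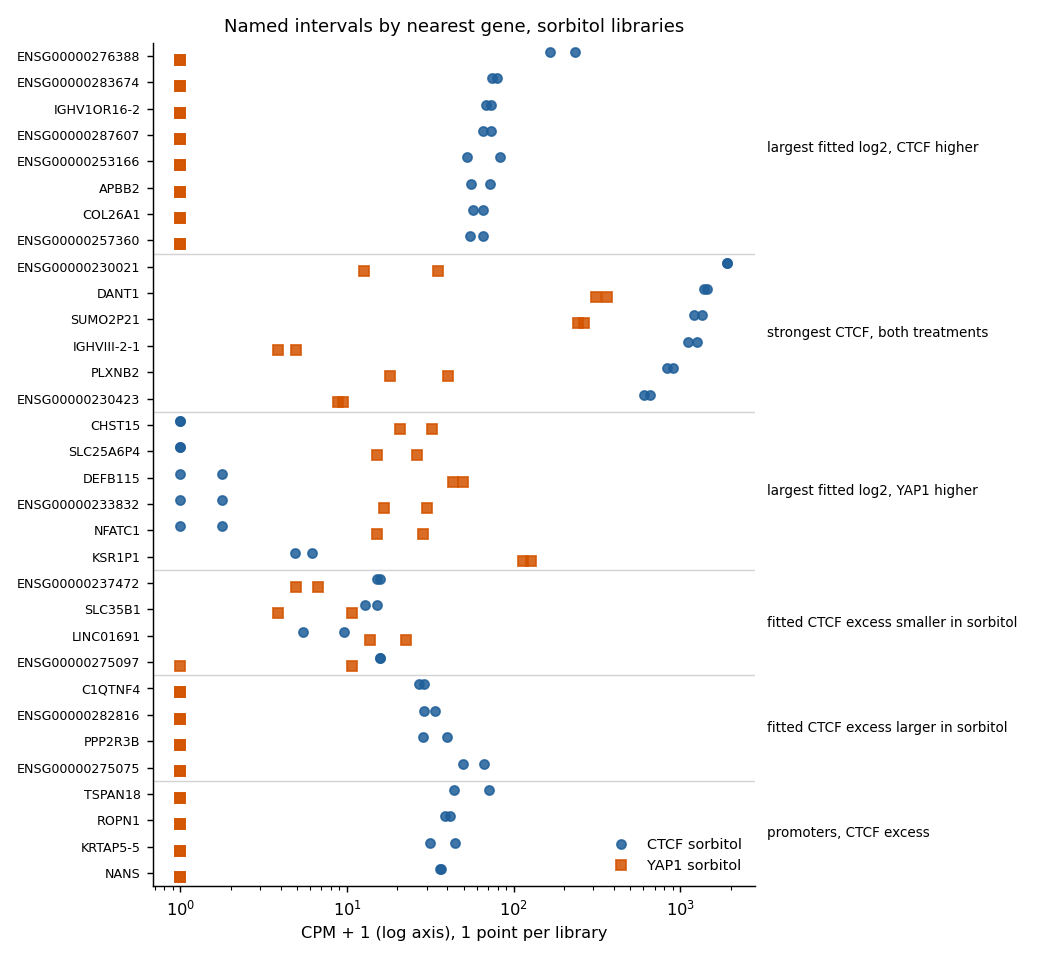
CPM + 1 (log x axis) in each sorbitol library for the intervals of the 6 groups above, named by the nearest gene (y axis), with CTCF as circles and YAP1 as squares. CTCF and YAP1 points do not overlap in the groups chosen by their sorbitol values, and the squares at 1 are libraries without a count.

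Gene lists were read as the tested intervals within 10 kb of a start site of a listed gene, beside the values of all tested intervals. Further genes named from the lists were chosen after their values were seen. Imprinted genes, several of which have CTCF-bound control regions, had 32 tested intervals. Under sorbitol 9 were CTCF-higher (28.1% against 19.3% of all) and 1 was YAP1-higher (3.12% against 5.53%). Inside IGF2, a growth factor gene (chr11:2151385-2152423), CTCF had 217 and 226 counts and YAP1 2 and 0. With vehicle it had 547 and 409 against 16 and 4, so the site was specific in both treatments. At MEG3, a maternally expressed non-coding RNA (chr14:100850931-100851590), the counts were 67 and 91 against 3 and 0, a log2 of 4.57 ± 0.60. At CDKN1C, a cell cycle inhibitor (chr11:2888393-2889010), they were 105 and 76 against 8 and 0, a log2 of 3.39 ± 0.47. Both of these intervals held a perfect match to the consensus. At the GRB10 start site YAP1 was higher (log2 -1.62 ± 0.60, adjusted p 0.04 by edgeR), but not without the first YAP1 sorbitol library, where the adjusted p was 0.73, or without the second CTCF sorbitol library, where it was 0.49.

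The clustered protocadherins are cell surface proteins whose promoters are chosen through CTCF loops. They had 8 tested intervals, of which 4 were CTCF-higher under sorbitol (50% against 19.3% of all) and 6 with vehicle (75% against 41.9%). None was YAP1-higher, against 5.53% and 32.9% of all. Near PCDHGC3 (chr5:141512243-141512830) CTCF had 64 and 95 counts against 7 and 6, a log2 of 2.49 ± 0.44. Near PCDHB1 it had 15 and 7 against 0 and 0, at least 3.39-fold higher (adjusted p 0.012 by edgeR, and 0.078, 0.096 and 0.05 without the first CTCF, first YAP1 and second YAP1 sorbitol library). The list kept 2 to 4 of its calls under the 4 scalings and 1 to 4 with a library left out.

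HOX genes, which pattern the body axis and have CTCF boundaries in their clusters, had 87 tested intervals. Under sorbitol 10 were CTCF-higher (11.5% against 19.3% of all) and 5 YAP1-higher (5.75% against 5.53%), and 5 and 4 of these held under all scalings. In an intron of HOXB7, nearest to a HOXB8 start site (chr17:48618592-48619441), CTCF had 85 and 96 counts against 6 and 4, with a log2 of 3.06 ± 0.43. With vehicle it had 173 and 128 against 17 and 25. The largest value in the other direction was at HOXB3, with 3 and 4 CTCF counts against 15 and 4. Its adjusted p of 0.015 by edgeR rose to 0.4 without the first YAP1 sorbitol library, and to 0.099 and 0.072 without the first and second CTCF library.

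YAP targets held calls in both directions. Of 49 tested intervals 8 were YAP1-higher with sorbitol (16.3% against 5.53% of all) and 8 CTCF-higher (16.3%). With vehicle the counts were 23 (46.9% against 32.9%) and 16 (32.7% against 41.9%). At the promoter of CCN2, a matricellular protein and classic YAP target (chr6:131950279-131951693), YAP1 had 57 and 37 counts and CTCF 30 and 34, a log2 of -1.66 ± 0.28. At the promoter of AMOTL2, an angiomotin that restrains YAP (chr3:134373436-134375047), YAP1 had 26 and 19 and CTCF 15 and 18, a log2 of -1.55 ± 0.37. An interval near FOXF2, a forkhead factor gene (chr6:1387954-1388433), had 1175 and 1011 YAP1 counts and 833 and 856 CTCF counts. The YAP1 counts were over 0.1% of each YAP1 sorbitol library. Other intervals near FOXF2 were CTCF-higher, at chr6:1381601-1382559 (log2 from 1.44 to 2.05 over the 4 scalings) and chr6:1396963-1397612 (1.64 to 2.25). In MYOF, a membrane repair protein (chr10:93376328-93377007), CTCF had 18 and 18 counts against 0 and 0, at least 5.55-fold higher. NT5E, an ecto-nucleotidase, had 33 and 37 against 1 and 0 (chr6:85483056-85483569). Near RBMS3, an RNA-binding protein gene, CTCF had 0 and 0 counts and YAP1 2 and 7, a call that was lost without the second YAP1 sorbitol library (adjusted p 0.12 by edgeR). All 8 YAP1-higher calls of the list held under the 4 scalings. With a single library left out, those at CCN1, PTPN14, ANKRD1, LATS2 and RBMS3 were each lost in some fit. The YAP1-higher calls at CCN2, AMOTL2 and FOXF2 were kept in every such fit.

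TEAD factors and Hippo partners had 27 tested intervals, of which 21 were YAP1-higher with vehicle (77.8% against 32.9% of all) and 5 with sorbitol (18.5% against 5.53%), and 2 were CTCF-higher in each. Over the 4 scalings the sorbitol counts ranged from 5 to 11 and from 0 to 2. The YAP1-higher calls at TEAD1 (chr11:12673986-12675381), AMOTL1, NF2 and VGLL4 were each lost in some fit with a single library left out. Only the YAP1-higher call at SAV1 was kept in every such fit. At the promoter of SAV1, a scaffold of the Hippo kinases (chr14:50667236-50668757), YAP1 had 21 and 14 counts and CTCF 6 and 2, a log2 of -3.21 ± 0.61. In TEAD1 (chr11:12888682-12889180) CTCF had 17 and 9 counts against 1 and 0, a ratio of 12.0 with a 95% interval from 1.98 to 493.0 for counting error. That call was lost under the weakest-interval scaling (adjusted p 0.1 by edgeR) and without either YAP1 sorbitol library (0.11 and 0.19), the first CTCF sorbitol library (0.16) or the first CTCF vehicle library (0.055).

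Immediate early genes, which are transcribed within minutes of a stimulus, had far fewer YAP1-higher calls with sorbitol than with vehicle, as all tested intervals did. Of 93 tested intervals, 47 were YAP1-higher and 19 CTCF-higher with vehicle, and 1 and 17 with sorbitol (1.08% and 18.3%, against 5.53% and 19.3% of all). With vehicle the YAP1-higher share was 50.5% against 32.9%. CTCF-higher in both treatments were 10. Over the 4 scalings the sorbitol counts ranged from 1 to 16 and from 7 to 17. The change was positive at 25 intervals (26.9% against 8.97% of all), and at 13 of them under every scaling. At KLF4, a zinc finger factor (chr9:107487445-107489133), CTCF went from 21 and 21 raw counts with vehicle to 209 and 257 with sorbitol, whose libraries are smaller. YAP1 there went from 19 and 11 to 12 and 12 (adjusted p of the change 1e-05 by edgeR, and at most 0.00043 under the scalings). At BTG2, an anti-proliferative gene (chr1:203305104-203307028), CTCF had 108 and 86, then 129 and 85 counts, and YAP1 167 and 110, then 39 and 16 (adjusted p of the change 6.4e-05 by edgeR). Near NR4A1, an orphan nuclear receptor, the interval with the perfect match printed above (chr12:52025330-52026101) had 174 and 169 CTCF counts against 10 and 2 with sorbitol and 390 and 266 against 26 and 22 with vehicle. Near GADD45B, a stress sensor (chr19:2474441-2475234), CTCF had 123 and 140 counts under sorbitol against 11 and 8. Near JUNB, an AP-1 subunit (chr19:12796264-12797132), it had 104 and 84 against 11 and 8. Near NR4A1, chr12:52023135-52024130 was CTCF-higher under sorbitol too, with 186 and 223 counts against 12 and 7. So was chr12:52050512-52051753, with 72 and 73 against 21 and 11. Its adjusted p was 0.021 by edgeR and up to 0.31 under the scalings. The other tested intervals near KLF4, NR4A1, GADD45B and JUNB were not called under sorbitol. Among them, chr19:2476257-2477466, over a start site near GADD45B, had 499 and 573 against 339 and 191 (log2 -0.08). At chr19:12791263-12791730, near JUNB, the counts were 29 and 27 against 22 and 15 (log2 -0.51). Near ATF3, in a non-coding exon of ENSG00000260805 (chr1:212558181-212559347), YAP1 was higher, with 33 and 24 counts against 18 and 27 for CTCF. The adjusted p of 0.0018 by edgeR became 0.06 without the first CTCF sorbitol library. The other ATF3 interval, over a start site (chr1:212607935-212609946), was not called under sorbitol. It had 380 and 430 CTCF counts against 223 and 144, a log2 of 0.04.

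Genes of the osmotic response, such as ion and osmolyte transporters, had 33 tested intervals, with 5 CTCF-higher (15.2% against 19.3% of all) and 5 YAP1-higher (15.2% against 5.53%) under sorbitol. With vehicle 9 (27.3% against 41.9%) and 12 (36.4% against 32.9%) were. At OSGIN1, an oxidative stress gene (chr16:83956521-83957172), CTCF had 45 and 33 counts against 2 and 1, a ratio of 12.0 with a 95% interval from 3.97 to 59.6. At SGK1, a kinase induced by cell shrinkage (chr6:134173882-134174375), it had 44 and 47 against 2 and 3. Near the HSPA1A and HSPA1B chaperone genes, in a non-coding exon of ENSG00000289637, YAP1 had 14 and 8 counts against 7 and 0. The adjusted p of 0.0098 by edgeR rose to 0.21 without the second CTCF sorbitol library and 0.092 without the first YAP1 library. Leaving out a library gave 0 to 4 YAP1-higher calls in this list.

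Ribosomal protein genes had 192 tested intervals. YAP1 was higher at 103 with vehicle and at 10 with sorbitol, and CTCF at 44 and 39. With sorbitol these are 5.21% and 20.3%, close to the 5.53% and 19.3% of all tested intervals, and with vehicle 53.6% and 22.9%, against 32.9% and 41.9%. Over the 4 scalings the sorbitol counts ranged from 10 to 54 and from 24 to 39. The change was positive at 51 (26.6% against 8.97%), 23 of them under all scalings. Near RPL38 (chr17:74199635-74200050) CTCF had 75 and 65 counts under sorbitol against 1 and 1, a ratio of 32.4 with a 95% interval from 8.8 to 270.0. Near RPL18 (chr19:48608743-48609232) YAP1 had 13 and 2 counts against 4 and 2. That adjusted p of 0.032 by edgeR rose to 0.76 without the first YAP1 sorbitol library, to 0.21 and 0.059 without the second and first CTCF sorbitol library, and to 0.058 and 0.056 without the second and first CTCF vehicle library.

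Cohesin and loop factor genes had 28 tested intervals. Under sorbitol 5 were CTCF-higher (17.9% against 19.3% of all) and 3 YAP1-higher (10.7% against 5.53%). Next to CTCFL, the germline paralog of CTCF (chr20:57525975-57526963), CTCF had 78 and 88 counts against 6 and 4, a log2 of 2.93 ± 0.40, and 466 and 298 against 23 and 11 with vehicle. At ESCO2, a cohesin acetyltransferase gene, YAP1 had 20 and 12 counts against 11 and 9. Its adjusted p of 0.016 by edgeR was 0.13 without the second CTCF or the first YAP1 sorbitol library and 0.055 without the first CTCF one. No count or median of these lists was tested against other genes.

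**Figure D5:**
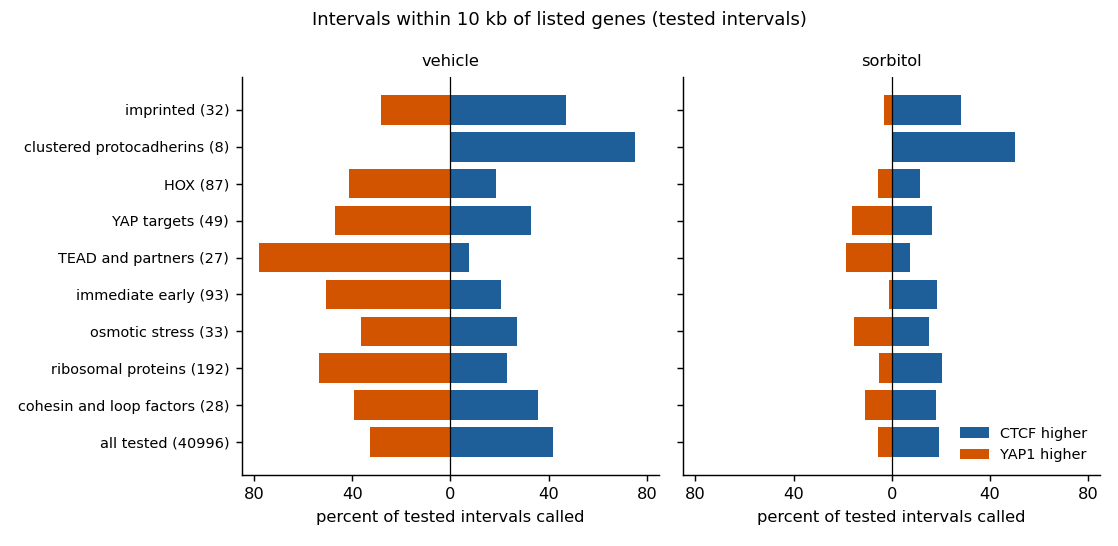
Percent of tested intervals within 10 kb of listed genes that were called CTCF-higher (blue, to the right) or YAP1-higher (orange, to the left) with vehicle and with sorbitol, with the number of tested intervals in brackets. YAP1-higher shares are smaller with sorbitol in the lists that had any, and the bottom bar gives 41.9% and 32.9% (vehicle) and 19.3% and 5.53% (sorbitol) for all tested intervals.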

How the data were processed

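The authors' deposited table holds raw counts per interval for 16 libraries over 74404 shared intervals, with no scaling. The submitters' processing notes name Trim Galore, FastQC, BWA 0.7.17, SAMtools, Picard, MACS2 2.2.6 and bedtools 2.31.1, and build hg38. How peaks were pooled is not given in the sources used here.

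Columns were matched to samples by target, treatment and replicate. Intervals were annotated with GENCODE release 44 and the hg38 sequence. The CTCF consensus was searched on both strands, and counts as present with at most 1 mismatch. The fit was edgeR 4.0.16 (R 4.3.3; TMM, robust quasi-likelihood, filterByExpr at 10 counts, two-sided, Benjamini-Hochberg adjusted p under 0.05) on 4 groups of 2 libraries. It gave the sorbitol contrast, the vehicle contrast and their difference over 40996 intervals. Standard errors come from the F statistic. DESeq2 1.42.0, other scalings and filters, thinning and single libraries left out were alternatives. The model was checked on simulated counts.

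The intervals named are those with the largest fitted values in 6 groups (CTCF excess, CTCF level, YAP1 excess, smaller or larger excess with sorbitol, promoters) and per list and direction, among called intervals of above-median level whose CTCF and YAP1 libraries did not overlap. For the lists a call was enough. Members and lists were chosen with earlier results of these data known. A further marker of the line is not reported here.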

Additional observations from a re-analysis of the deposited data

Results flagged for a closer look

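The log2 CTCF over YAP1 differed between sorbitol and vehicle, by the test of the difference over 8 libraries, at 3677 intervals where it was larger and at 1387 where it was smaller. Of the 6 groups of intervals named in the report, those with a smaller or larger excess under sorbitol were chosen by this test. Their members therefore passed by construction. With them counted, the edgeR adjusted p of this difference passed the threshold at 19. In the group with the largest fitted CTCF excess under sorbitol it was 0.0012 (ENSG00000283674), 0.037 (ENSG00000287607), 0.035 (ENSG00000253166), 0.0022 (APBB2), 0.017 (COL26A1) and 0.02 (ENSG00000257360), each with a larger excess under sorbitol. Among the strongest CTCF signals it was 2.1e-06 (IGHVIII-2-1) and 4.4e-05 (PLXNB2), again larger under sorbitol. The YAP1-higher interval in NFATC1 had 0.0057. The excess was smaller under sorbitol at ENSG00000237472 (0.001), SLC35B1 (0.0025), LINC01691 (0.017) and ENSG00000275097 (0.03), and larger at C1QTNF4 (4.4e-05), NEFH (0.00075), PPP2R3B (0.00074) and ENSG00000275075 (0.0045). At the promoters of ROPN1 and KRTAP5-5 it was 0.0064 and 0.036. Among the list intervals named it was 0.025 near RPL18, where the log2 fell by 3.19, and 1e-05 at KLF4 and 6.4e-05 at BTG2, where the log2 was larger under sorbitol. Intervals outside the comparison held 46.7% of the CTCF sorbitol counts and 70.2% of the YAP1 sorbitol counts.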

How the results depend on the processing

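No named interval changed sign in the sorbitol contrast, but scaling turned the balance of calls. The median sorbitol log2 went from 0.21 to -0.37 under the weakest-interval scaling, and the median change from 0.39 to -0.19 under DESeq2 size factors and -0.25 by DESeq2. The cause was not tested where a value moved, except that stricter filters and thinning test fewer intervals. The CTCF-higher count under sorbitol was 5285 with the weakest-interval scaling and 2658 at a mean of at least 50 counts. The YAP1-higher count was 6900 with that scaling, and 1271 to 2036 with a library left out, lowest without either CTCF or the first YAP1 sorbitol library (1308, 1271 and 1330). With vehicle, CTCF-higher counts were 9588 (that scaling), 3347 (mean of 50) and 10034 (thinned). YAP1-higher counts with vehicle were 8788 (DESeq2 size factors), 7964 (DESeq2), 3231 (mean of 50), 8030 (GC-corrected offsets) and 8137 (thinned). CTCF-higher in both treatments were 3781 (weakest-interval scaling) and 2497 (mean of 50). Positive changes were 1021 (DESeq2 size factors), 8422 (weakest-interval scaling), 2027 (no filter), 1306 (mean of 50), 938 (DESeq2), 1660 (GC-corrected), 944 (thinned), and 2395 to 3339 with a library left out, lowest without the second YAP1 sorbitol library. Negative changes were 2552, 874, 763 (mean of 50), 3078 (DESeq2), 594 (thinned), and 650 to 1289 with a library left out, lowest without either CTCF vehicle library (650 and 693). The distal minus promoter median was 0.317 without a filter, 2.00 at a mean of 50, 0.567 with GC-corrected offsets, 0.932 without dominant intervals, 1.67 thinned, and 0.543 to 1.16 with a library left out. The consensus minus none median was 1.86 without a filter, 2.19 at a mean of 50, 1.64 with GC-corrected offsets, 2.07 thinned, 2.32 for perfect matches only, and 1.92 to 2.14 with a library left out. The rise in correlation, 0.316, was 0.333 unthinned, 0.501 at a mean of 50, 0.292 by Pearson and 0.273 at distal intervals. Same-numbered libraries did not deviate together (correlations from -0.0113 to 0.0123). Counting noise can hide a shared origin, so this cannot tell whether they came from the same culture or batch. A replicate block gave 7487 CTCF-higher and 1977 YAP1-higher calls under sorbitol. A replicate block with GC-corrected offsets gave 7393 and 1352, with 7294 YAP1-higher in vehicle and 1414 positive changes. Named intervals kept their call in 524 of the results under other settings and lost it in 17, and with a library left out in 366 and 25, with 1 gained.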
